A study of Sus scrofa with 21 samples.

Results

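Late-rising infarct core transcripts are those that stood higher in the scar of the infarcted pig heart at 4 and 6 weeks after myocardial infarction (post-MI) than at 1 week, whether or not they were already above control at 1 week. They were chosen by a rule on measured values: a probe set had to exceed 3 on the log2 scale in at least 10 of 21 arrays, and its means in infarct core (IC) at 4 and at 6 weeks each had to lie at least 1 above control myocardium (CM) and at least 0.8 above IC at 1 week. Of 12180 probe sets that passed the filter, 100 met it, 97 for pig transcripts and 3 for bacterial spike-in controls of the labelling reaction. Of the 97, 85 carried a gene name (81 distinct names) and 12 carried none.

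All animals were female Landrace x Large White pigs. In 9 of them MI was induced surgically, by permanent ligation of a branch of the circumflex artery, and each gave 1 IC sample from the middle of the left ventricular scar and 1 remote myocardium (RM) sample from the non-infarcted septum. Pigs 7, 8 and 9 were sampled at 1 week (6 days), pigs 18, 20 and 22 at 4 weeks (30 days) and pigs 2, 3 and 5 at 6 weeks (45 days), and values below follow that order of pigs within a stage. The 3 CM samples came from pigs 30, 31 and 33, which the sample labels call sham-operated at 0 days and the study's text calls healthy. Values are log2 expression values on Affymetrix porcine arrays, 1 array per sample, and the number of arrays (3 per group) limits the precision. A level of 1 probe set cannot be set against that of another.

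After an infarct, dead heart muscle is cleared and replaced by granulation tissue, in which activated fibroblasts (myofibroblasts) lay down fibrillar collagen. As the scar matures, cell division and inflammation subside, collagen is cross-linked, and fibroblasts of the scar settle into a less contractile state. Elastic fibres, built from elastin on a scaffold of microfibrils, and small glycoproteins that organize collagen belong to this later matrix. Resting fibroblasts of the heart and of vessel walls are marked by a small set of genes that includes SCARA5, PCOLCE2, CLEC3B, GSN, MFAP5 and IGFBP6. The marker list used below also holds CD34, DPT, SERPINF1 and DPP4, which did not meet the rule.

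IC at 1 week stood apart in its spiked-in controls, which touches every difference from IC at 1 week given below. The 3-prime probe sets of the poly-A controls (RNAs added before labelling, 12 probe sets) averaged 4.50, 5.87 and 4.79 in the 3 IC arrays at 1 week, 6.46, 5.98 and 5.98 at 4 weeks and 7.08, 6.40 and 5.83 at 6 weeks, against 5.66, 5.48 and 5.31 in CM. They were thus 1.09 higher at 4 weeks and 1.39 higher at 6 weeks than in IC at 1 week, and the hybridization controls (27 probe sets, added after labelling) 0.65 and 0.39 higher. The 5-prime probe sets of the same poly-A controls were highest at 4 weeks in both regions, 1.85 above IC at 1 week in IC and 0.94 above RM at 1 week in RM. For pig actin the 5-prime minus the 3-prime control value was -3.96, -3.04 and -4.84 in IC at 1, 4 and 6 weeks. For elongation factor 1 alpha it was -1.96, -0.90 and -2.02 in IC, and for GAPDH -1.30, -0.75 and -1.14. Ribosomal protein genes (83 probe sets) differed by 0.09 and -0.02 between IC at 4 and 6 weeks and IC at 1 week. All 97 late-rising transcripts exceeded IC at 1 week by more than the hybridization controls did at both stages. The rule had fixed this count, since its limit over IC at 1 week lies above both differences of the hybridization controls. No reading is taken from it. At both stages 25 of the 97 exceeded IC at 1 week by more than the 3-prime poly-A controls did. With all arrays centred on the hybridization controls 28 probe sets still met the rule, and with centring on the 3-prime poly-A controls only PCOLCE2 did. The part of labelling in the differences was not tested beyond these values.

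**Figure D1:**
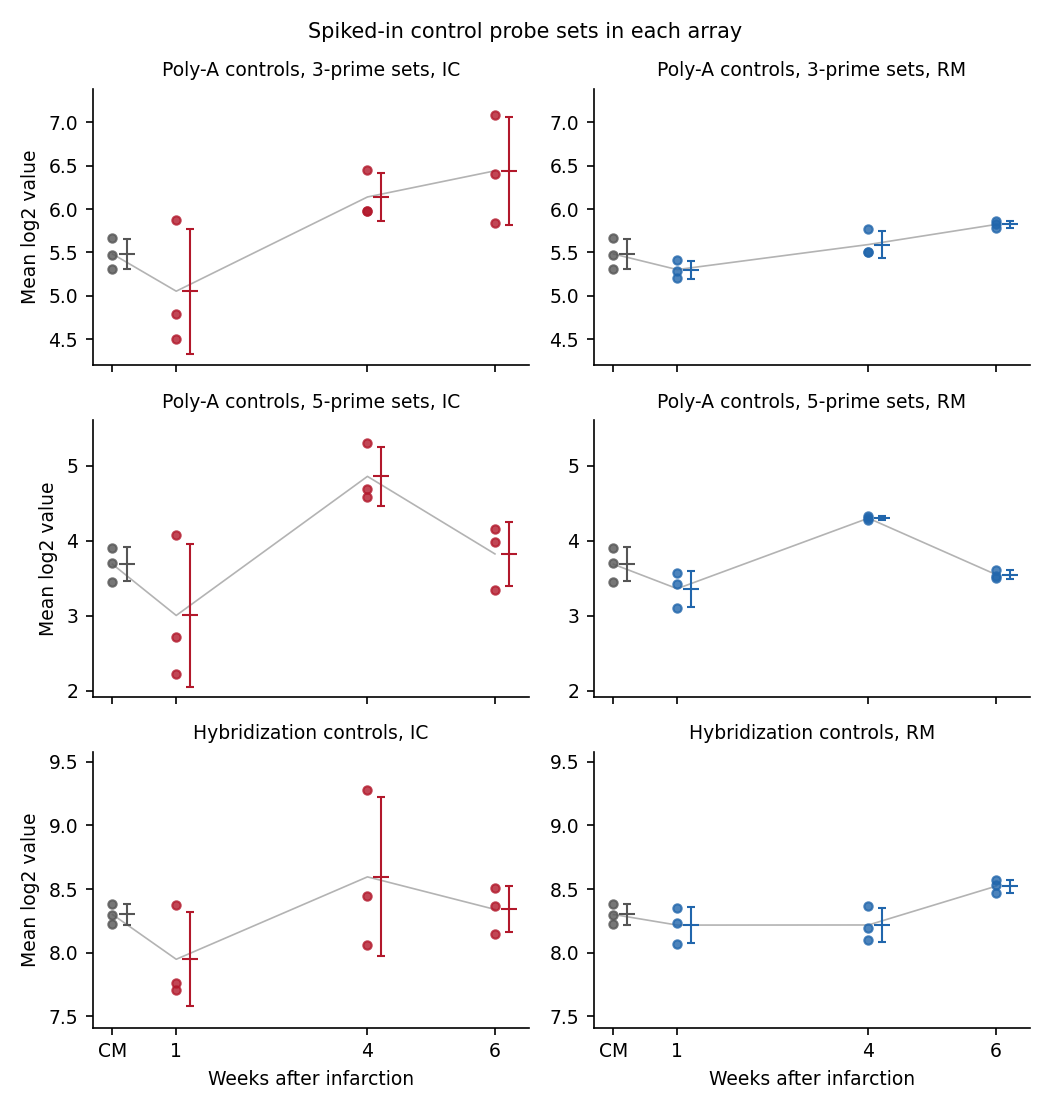
Mean log2 values of the spiked-in control probe sets in each array, in IC on the left and RM on the right, by weeks post-MI with CM at the low end; points are arrays, bars are the group mean and SD (n = 3). The 3-prime poly-A controls of 2 of the 3 IC arrays at 1 week, at 4.50 and 4.79, lie below all other arrays, and the 5-prime controls peak at 4 weeks in both regions.

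The median of the 97 transcripts, each taken relative to its CM mean, was 0.70, 0.81 and 0.72 in the IC arrays of 1 week, 2.42, 2.14 and 2.28 at 4 weeks and 1.77, 2.16 and 1.96 at 6 weeks. In RM it lay between -0.23 and 0.10 at 1 week and between 0.23 and 0.41 at 4 weeks, and returned to between -0.19 and 0.18 at 6 weeks, and in CM between -0.08 and 0.06. Because these values chose the transcripts, differences between IC stages, and of IC from CM, are given below for these transcripts as descriptions with the standard error (SE) of the linear model and with no test. For lists of related genes, the number past an adjusted p of 0.05 in the limma fit is given over the genes that did not meet the rule. Where a list held late-rising genes, the rule had removed them by the same IC values that the test uses. That lowers the upward counts of such lists, so these cannot be read against the share of all probe sets. IC and CM arrays did not overlap in 94 transcripts at 4 weeks and in 96 at 6 weeks, with IC higher in each (all probe sets tested, 28.3% and 24.4%), and the same held against IC at 1 week for 86 transcripts at 4 weeks and 82 at 6 weeks (14.1% and 13.7%). In bulk tissue, more cells of a type and more RNA per cell cannot be told apart.

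**Figure D2:**
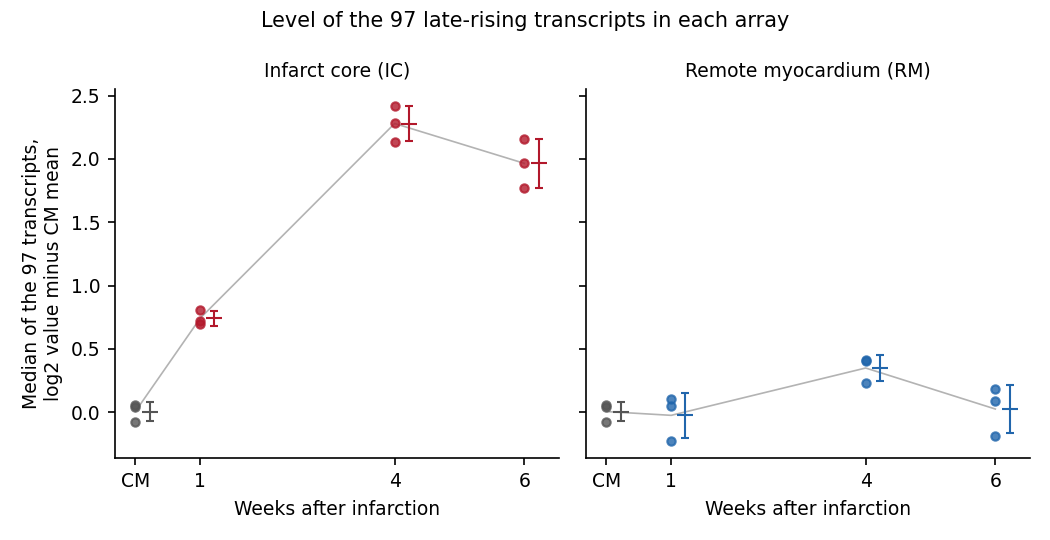
Median over the 97 late-rising transcripts of the log2 value minus the CM mean, 1 point per array, by weeks post-MI with CM at the low end, IC left and RM right; bars are the mean and SD of the 3 arrays. The 6 IC arrays of 4 and 6 weeks lie between 1.77 and 2.42, above the IC arrays of 1 week (0.70 to 0.81) and above every RM array (at most 0.41).

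In IC at 1 week 60 of the 97 were at least 0.5 above CM (25.2% of all probe sets), 36 were within 0.5 of it and 1, SCARA5, was below it by more than 0.5 (26.9% of all probe sets). The median difference of IC from CM was 0.74, 2.27 and 1.96 at 1, 4 and 6 weeks, where that of all probe sets tested was -0.06, -0.06 and -0.08. IC at 6 weeks was lower than IC at 4 weeks in 76 transcripts and higher in 21, with a median difference of -0.26 (all probe sets, -0.01). A difference of 0.5 or more was downward in 26 (8.83% of all probe sets) and upward in 5 (8.18%).

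The marker genes of resting and adventitial fibroblasts were the cell type list with the most late-rising genes. Of 12 such markers 10 were measured, and 6 of the 10 met the rule: SCARA5, PCOLCE2, CLEC3B, GSN, IGFBP6 and MFAP5. Averaged over the 10 markers, the level ranged from 6.67 to 7.02 in IC at 1 week, then from 8.54 to 8.77 at 4 weeks and from 8.02 to 8.53 at 6 weeks, against 6.54 to 6.87 in CM. The 10 genes had a median difference of 1.63 between IC at 4 weeks and IC at 1 week and of 1.31 at 6 weeks (all probe sets, -0.03 and -0.02). The rule required at least 0.8 of the 6, so it raised this median and the level averaged over the 10. Neither is read against all probe sets. The 4 others were CD34 (0.84 at 4 weeks and 0.20 at 6 weeks above IC at 1 week), DPT (0.37 and 0.35), SERPINF1 (1.26 and 0.79) and DPP4 (0.77 and 1.76). Of these 4, CD34 passed the test upward at 4 weeks and DPP4 at 6 weeks (all probe sets upward, 5.57% and 6.64%). DPP4 was the exception in level, since its means of 5.13, 5.90 and 6.90 in IC at 1, 4 and 6 weeks stayed below the 8.92 of CM.

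SCARA5, a scavenger receptor that binds ferritin, had the largest difference from IC at 1 week. Its log2 values were 2.49, 3.63 and 3.69 in IC at 1 week, 7.49, 6.01 and 7.47 at 4 weeks and 6.57, 6.93 and 5.37 at 6 weeks, against 4.88, 5.28 and 5.01 in CM. The 3 IC arrays of 1 week lay below all CM arrays, and all 6 later IC arrays lay above them. IC at 1 week thus differed from CM by -1.79 (SE 0.48), while IC at 4 and 6 weeks was 1.93 and 1.23 higher and exceeded IC at 1 week by 3.72 and 3.02. PCOLCE2, which enhances removal of the C-propeptide from procollagen, had 4.54, 4.53 and 5.21 in IC at 1 week, 8.11, 8.15 and 8.07 at 4 weeks and 7.41, 7.77 and 6.84 at 6 weeks, against 5.16, 5.09 and 5.50 in CM. Its 1-week IC arrays overlapped CM and its later ones lay above both groups. The differences from IC at 1 week were 3.35 and 2.58 (SE 0.32).

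CLEC3B (tetranectin, a plasminogen-binding protein) had 6.88, 7.31 and 6.58 in IC at 1 week, 8.81, 8.13 and 9.69 at 4 weeks and 8.14, 9.10 and 8.25 at 6 weeks, against 7.31, 7.18 and 6.74 in CM. At 1 week the IC arrays overlapped CM, and all later arrays were above both. GSN, gelsolin, which severs actin filaments and also has a secreted form, was represented by 2 probe sets. The brighter had 10.14, 9.87 and 10.48 in IC at 1 week, 12.14, 12.34 and 11.72 at 4 weeks and 11.62, 11.66 and 11.85 at 6 weeks, against 9.77, 9.04 and 9.42 in CM, and the dimmer one was 1.25 and 1.34 above IC at 1 week at 4 and 6 weeks (SE 0.20). Both GSN probe sets separated late from early arrays. MFAP5, a microfibril protein, stood 1.64 and 1.06 above IC at 1 week at 4 and 6 weeks (SE 0.30). IGFBP6, a binding protein of insulin-like growth factor II, did so by 1.47 and 1.19 on 1 probe set (SE 0.34) and by 1.62 and 0.95 on the other (SE 0.26).

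**Figure D3:**
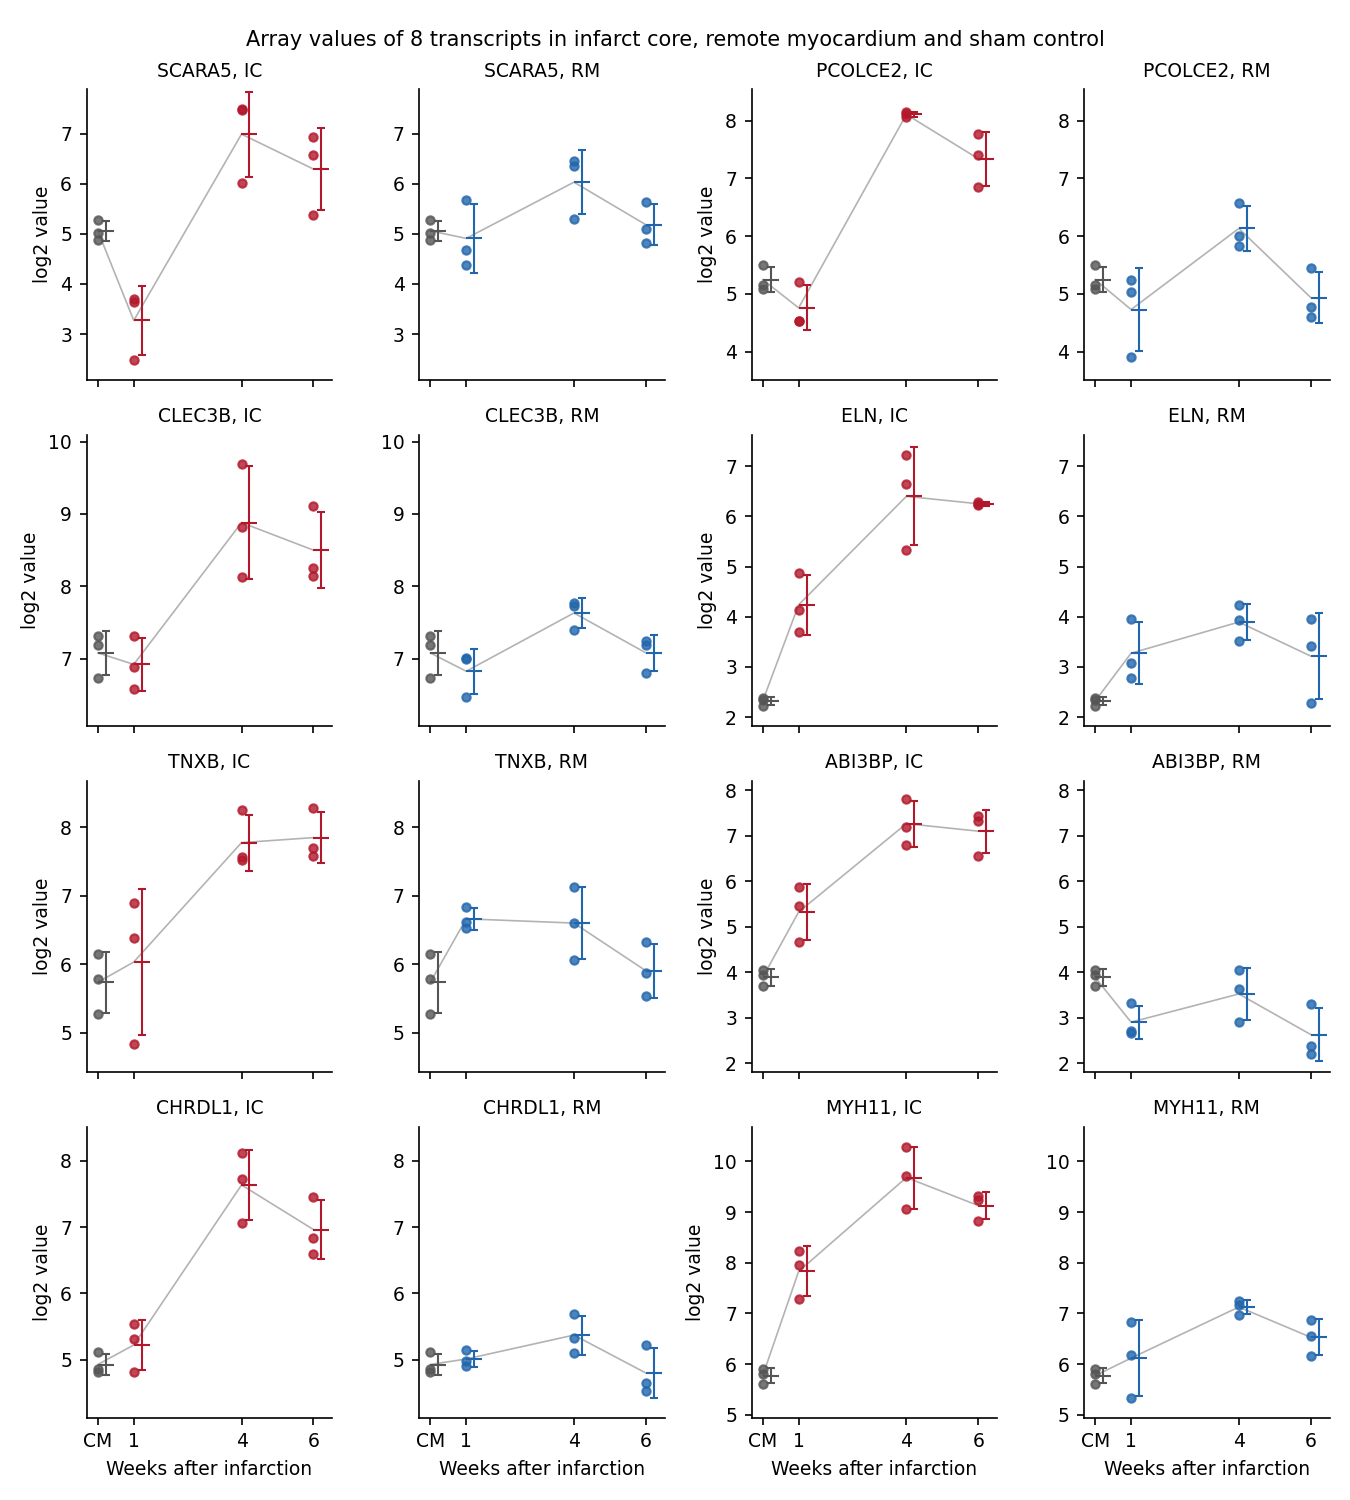
Log2 values of 8 late-rising transcripts in each array by weeks post-MI with CM at the low end, each gene in IC on the left and in RM on the right; points are arrays and bars are the group mean and SD (n = 3). SCARA5 lies below CM in IC at 1 week, PCOLCE2, CLEC3B, TNXB and CHRDL1 are near CM there, and ELN, ABI3BP and MYH11 are already above it.

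The 6 measured myofibroblast markers averaged 9.34, 9.53 and 9.11 in IC at 1, 4 and 6 weeks, against 5.41 in CM, and none met the rule. Of 10 general fibroblast markers only THY1 did, through 1 of its 3 probe sets, which was 1.50 and 1.00 above IC at 1 week. The 2 other THY1 probe sets differed from IC at 1 week by 0.24 and 0.35 at 4 weeks and by 0.39 and 0.21 at 6 weeks. The study's own sequence match names the latter of the 2 SIDT1. The proliferation genes TOP2A and PCNA went the other way, by -1.95 and -1.04 at 4 weeks and by -1.79 and -1.06 at 6 weeks.

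Structural matrix genes formed the next group. Of 14 measured genes of elastic fibres and microfibrils 2 met the rule, ELN and MFAP5. Of the 12 others 3 passed the test upward at 4 weeks, FBLN1, FBLN2 and LTBP1 (5.57% of all probe sets). At 6 weeks 0 did so (6.64%). ELN, which encodes elastin, had 4.14, 4.88 and 3.69 in IC at 1 week, 6.66, 7.22 and 5.32 at 4 weeks and 6.22, 6.25 and 6.29 at 6 weeks, against 2.39, 2.23 and 2.35 in CM. No IC array overlapped CM, and the later IC arrays were all above those of 1 week. ELN was 1.92, 4.08 and 3.93 above CM at 1, 4 and 6 weeks (SE 0.44), with a CM mean of 2.32 that lies under the filter level of 3, where the size of a difference is not exact. Among the genes of this list that did not meet the rule, FBLN1 and FBLN2 (fibulins 1 and 2) differed from IC at 1 week by 1.16 and 0.87 at 4 weeks and by 0.66 and 0.55 at 6 weeks, FBN1 (fibrillin 1) by 0.24 and 0.25, and the cross-linking enzyme LOX by 0.25 and -0.54.

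Of 18 measured collagen genes 2 met the rule, and both encode collagens of the class that attaches to fibril surfaces. COL14A1 had 9.74, 10.09 and 9.86 in IC at 1 week, 11.09, 11.11 and 11.13 at 4 weeks and 10.58, 11.04 and 11.31 at 6 weeks, against 7.29, 6.97 and 8.27 in CM. It was high in every IC array, and the 6 later arrays were above the 3 of 1 week. COL21A1 averaged 4.70, 6.09 and 6.21 in IC at 1, 4 and 6 weeks, against 2.65 in CM, and was 1.40 and 1.51 above IC at 1 week (SE 0.33). Over all 18 collagens the median difference from IC at 1 week was 0.22 at 4 weeks and -0.17 at 6 weeks. Of the 16 that did not meet the rule, none passed the test upward (all probe sets upward, 5.57% and 6.64%). Downward, 1, COL11A1, passed it at each stage (all probe sets downward, 6.35% and 9.1%).

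Proteoglycans and matricellular proteins, which organize or decorate the matrix, gave 7 of 30 measured genes: ABI3BP, AEBP1, MATN2, NOV, SPARCL1, SRPX and TNXB. Of the 23 others 3 passed the test upward at 4 weeks, PRELP, SDC2 and SMOC2 (5.57% of all probe sets). At 6 weeks 0 did so (6.64%), and none passed it downward at either stage (6.35% and 9.1%). The median difference over all 30 was 0.42 and 0.21. TNXB, tenascin X, a glycoprotein that ties collagen fibrils together, had 4.83, 6.38 and 6.89 in IC at 1 week, 8.24, 7.52 and 7.56 at 4 weeks and 7.58, 8.27 and 7.69 at 6 weeks, against 5.78, 5.27 and 6.15 in CM. IC at 1 week was spread widely and overlapped CM, and later IC arrays exceeded both. ABI3BP, an extracellular matrix protein, had 5.87, 5.45 and 4.66 in IC at 1 week, 7.20, 7.81 and 6.80 at 4 weeks and 7.43, 6.56 and 7.32 at 6 weeks, against 3.93, 3.69 and 4.04 in CM, so that all 9 IC arrays were above CM and the 6 later ones above the 3 of 1 week.

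AEBP1, a secreted collagen-binding protein, had the largest difference from CM at 6 weeks. It had 8.13, 9.10 and 8.55 in IC at 1 week, 9.78, 9.63 and 9.65 at 4 weeks and 9.05, 9.65 and 10.14 at 6 weeks, against 3.71, 3.43 and 4.45 in CM. Most of its difference was present at 1 week (4.73 above CM, SE 0.31), and the 6-week array of pig 2, at 9.05, lay within the 1-week range. NOV (CCN3, a matricellular protein) averaged 6.01, 8.05 and 7.36 in IC at 1, 4 and 6 weeks, against 3.03 in CM. SPARCL1, MATN2 and SRPX were 1.32, 1.18 and 1.30 above IC at 1 week at 4 weeks and 0.85, 0.84 and 0.90 above it at 6 weeks. Among 14 proteases and inhibitors TIMP3, an inhibitor of metalloproteinases bound to the matrix, was 1.56 and 1.15 above IC at 1 week (SE 0.22), ADAMTSL3, a relative of the ADAMTS proteases without their catalytic domain, 1.44 and 0.86 (SE 0.31), and PCOLCE2 is described above.

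Signalling genes among the late-rising transcripts were ligands, receptors and antagonists. CHRDL1, an antagonist of bone morphogenetic proteins (BMP), had 4.82, 5.55 and 5.31 in IC at 1 week, 7.73, 7.06 and 8.11 at 4 weeks and 6.60, 7.45 and 6.84 at 6 weeks, against 4.81, 4.86 and 5.11 in CM. It was near CM at 1 week, and every later IC array exceeded every earlier one. FST, follistatin, which binds activins, averaged 3.89, 4.91 and 5.32 in IC at 1, 4 and 6 weeks, against 3.63 in CM (SE of differences 0.41), and the 4-week array of pig 20, at 4.05, lay within the range of both other groups. These were 2 of 20 measured genes of the TGF-beta and BMP pathway, whose median difference from IC at 1 week was 0.16 at 4 weeks and -0.04 at 6 weeks. Of the 18 others 1 passed the test upward (BMP4) and 1 downward (SMAD4) at 4 weeks (5.57% and 6.35% of all probe sets). At 6 weeks 0 passed upward and 2 downward, TGFB1 and TGFBR1 (6.64% and 9.1% of all probe sets). BMP4, a ligand, differed from IC at 1 week by 0.90 and 0.29, and TGFB1 by -0.59 and -1.20.

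Of 9 measured axon guidance genes, 3 met the rule, and they are a receptor and its ligands. SLIT3 had 4.00, 3.58 and 3.90 in IC at 1 week, 5.37, 4.98 and 5.65 at 4 weeks and 4.54, 5.68 and 4.63 at 6 weeks, against 2.50, 2.34 and 2.12 in CM, with no overlap between early and late IC arrays. SLIT2 averaged 3.90, 4.86 and 5.01 in IC at 1, 4 and 6 weeks, against 2.77 in CM (SE 0.42), and the arrays of pig 20 at 4 weeks and pig 2 at 6 weeks, at 4.00 and 3.83, lay within the 1-week range. ROBO1, their receptor, had 5.04, 4.89 and 4.66 in IC at 1 week, 6.18, 5.50 and 5.63 at 4 weeks and 6.48, 6.18 and 6.81 at 6 weeks, against 2.13, 2.65 and 3.26 in CM. It was 1 of the 5 probe sets that were higher at 6 than at 4 weeks by 0.5 or more. Among the others of this list, the plexin PLXNC1 went the other way, by -1.48 and -2.17.

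Of 19 measured growth factors, receptors and binding proteins 4 met the rule. Of the 15 others 3 passed the test upward at each late stage, IGFBP5, PDGFC and PDGFRL (all probe sets, 5.57% and 6.64%). Downward, 2 passed at 4 weeks, CXCR4 and IGF1, and 1 at 6 weeks, CXCR4 (all probe sets, 6.35% and 9.1%). NTRK2, the receptor of brain-derived neurotrophic factor, was represented by 2 probe sets. The brighter had 6.97, 7.04 and 7.56 in IC at 1 week, 9.12, 7.50 and 9.39 at 4 weeks and 8.89, 9.62 and 9.91 at 6 weeks, against 5.63, 5.90 and 5.65 in CM. Only the 4-week array of pig 20 fell within the 1-week range. On both NTRK2 probe sets IC at 6 weeks exceeded IC at 4 weeks, by 0.80 and 0.56 (SE 0.44 and 0.43). CXCL12, a chemokine, averaged 6.31, 7.46 and 7.33 in IC at 1, 4 and 6 weeks, against 4.05 in CM, and EGFR, the epidermal growth factor receptor, 4.65, 5.75 and 5.63, against 3.13 in CM. Second probe sets for CXCL12 and EGFR were also above IC at 1 week, by 1.27 and 0.81 at 4 weeks and by 0.77 and 0.74 at 6 weeks. The study's own sequence match names the second EGFR probe set OSBPL9, so its gene is unclear. PENK, which encodes proenkephalin, the precursor of opioid peptides, had 4.82, 7.36 and 5.14 in IC at 1 week, 7.96, 10.50 and 5.36 at 4 weeks and 7.81, 5.56 and 9.50 at 6 weeks, against 1.81, 1.66 and 2.96 in CM. All 9 IC arrays were above CM, but the stages overlapped, and the differences of 2.17 and 1.85 from IC at 1 week had an SE of 1.03.

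Muscle and nerve genes were few. MYH11, the smooth muscle myosin heavy chain, had 8.24, 7.96 and 7.28 in IC at 1 week, 9.71, 9.06 and 10.28 at 4 weeks and 8.83, 9.32 and 9.23 at 6 weeks, against 5.90, 5.60 and 5.80 in CM. Each later IC array exceeded each earlier one. KCNMB1, a subunit of the calcium-activated potassium channel of smooth muscle, was 1.68 and 1.14 above IC at 1 week on its late-rising probe set (SE 0.24), but by -0.08 and 0.06 on its other one. Over all 10 measured smooth muscle and pericyte markers the median difference was 0.01 at 4 weeks and 0.25 at 6 weeks, and CNN1, calponin, differed by -0.75 and -1.35. SLN, sarcolipin, which inhibits the calcium pump of the sarcoplasmic reticulum, rested on few arrays. It had 4.27, 5.25 and 2.85 in IC at 1 week, 7.72, 8.26 and 1.75 at 4 weeks and 7.11, 5.81 and 4.27 at 6 weeks, against 3.87, 2.09 and 2.73 in CM. The 4-week array of pig 22 was the lowest of the 12, and the SE of the differences was 1.24.

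A probe set that the study's own sequence match names TNNC1, after the slow and cardiac troponin C, averaged 5.35, 7.43 and 6.35 in IC at 1, 4 and 6 weeks, against 2.31 in CM. The probe set to which the platform gives that name stood at 12.23, 11.85 and 12.28, against 12.49 in CM, so the name of the late-rising one is unclear. The 10 measured cardiomyocyte markers averaged 10.85, 10.59 and 11.16 in IC at 1, 4 and 6 weeks, against 11.65 in CM.

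PMP22, a protein of peripheral myelin, and S100B, a calcium-binding protein of Schwann cells and glia, were 2 of 4 measured nerve markers. S100B had 4.77, 5.24 and 5.01 in IC at 1 week, 6.60, 6.50 and 6.91 at 4 weeks and 6.05, 5.95 and 6.15 at 6 weeks, against 4.78, 5.18 and 4.68 in CM. Its 1-week IC arrays lay at the level of CM, and its later ones were all above. PMP22 was 1.76 and 1.37 above IC at 1 week (SE 0.25), while LGI4 and MBP, the other measured nerve markers, differed by 0.48 and -0.42 at 4 weeks and by 0.31 and -0.52 at 6 weeks.

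Immune genes of the group included FOLR2, MS4A2, CCL24 and PTGES. FOLR2, the folate receptor of a class of resident macrophages, had 5.06, 5.86 and 5.35 in IC at 1 week, 7.21, 7.07 and 7.00 at 4 weeks and 6.42, 6.78 and 7.12 at 6 weeks, against 4.77, 5.34 and 4.17 in CM. Its late arrays did not overlap those of 1 week. The 10 measured macrophage markers, FOLR2 included, averaged 7.16, 7.16 and 6.75 in IC at 1, 4 and 6 weeks, against 4.93 in CM. CCL24, a chemokine that draws eosinophils, had 4.62, 4.04 and 4.62 in IC at 1 week, 6.14, 5.83 and 6.86 at 4 weeks and 5.54, 7.02 and 6.08 at 6 weeks, against 4.58, 4.69 and 4.21 in CM, with all late arrays above the rest. PTGES, a prostaglandin E synthase, was 1.88 and 0.91 above IC at 1 week (SE 0.32). MS4A2, a subunit of the IgE receptor and the 1 mast cell marker measured, was so by 1.19 and 0.90 (SE 0.38).

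Metabolic genes included PSAT1, an enzyme of serine synthesis, which had 4.85, 7.08 and 6.16 in IC at 1 week, 7.63, 7.58 and 7.50 at 4 weeks and 7.57, 7.47 and 7.26 at 6 weeks, against 2.68, 3.38 and 4.32 in CM. All IC arrays of PSAT1 were above CM, and those of 1 week were spread far more than the later ones. FBP1, a bisphosphatase of gluconeogenesis, had 4.42, 4.96 and 4.90 in IC at 1 week, 6.88, 6.94 and 6.69 at 4 weeks and 5.97, 6.76 and 6.26 at 6 weeks, against 4.43, 4.31 and 3.85 in CM, with late arrays clear of the rest. G0S2, an inhibitor of fat breakdown and 1 of 6 measured adipocyte markers, averaged 4.37, 5.94 and 5.88, against 3.64 in CM (SE 0.32). The other adipocyte markers differed in course, with FABP4 0.50 and 0.26 above IC at 1 week and CFD 0.95 and 0.78. None of 10 measured Wnt pathway genes and none of 13 primary cilium genes met the rule. Of the Wnt genes 3 passed the test upward at 4 weeks and 2 at 6 weeks, and of the cilium genes 3 and 0. Over all probe sets 5.57% and 6.64% did. Downward, 1 cilium gene, BBS9, passed at both stages (all probe sets, 6.35% and 9.1%). In all, 37 of the 81 named genes were in at least 1 of 11 lists of roles and 17 of cell types, and 44 were in none.

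Among the remaining transcripts, the retinoic acid enzyme ALDH1A1 was 1.22 and 0.96 above IC at 1 week at 4 and 6 weeks (SE 0.28), C4BPA, a chain of the complement inhibitor C4b-binding protein, 1.31 and 1.18 (SE 0.45), and the cytokines IL17B and IL17D 1.27 and 1.10 at 4 weeks and 1.54 and 0.81 at 6 weeks. AMY2 had 5.54, 4.40 and 3.69 in IC at 1 week, 7.33, 7.63 and 7.38 at 4 weeks and 6.03, 6.12 and 6.33 at 6 weeks, against 5.52, 3.06 and 5.67 in CM, on 1 of its probe sets. It was highest at 4 weeks, and its difference of IC at 6 weeks from IC at 4 weeks was -1.29 (SE 0.65). PROCR had the most negative such difference, -1.44, and PARP8, a member of the poly(ADP-ribose) polymerase family, the most positive. PARP8 had 3.70, 2.86 and 3.72 in IC at 1 week, 4.47, 4.10 and 4.69 at 4 weeks and 5.60, 6.12 and 6.24 at 6 weeks, against 3.22, 3.49 and 2.83 in CM, so that the 3 IC stages did not overlap. The 12 transcripts without a name were 0.88 to 3.31 above IC at 1 week at 4 weeks and 0.92 to 2.08 above it at 6 weeks.

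**Figure D4:**
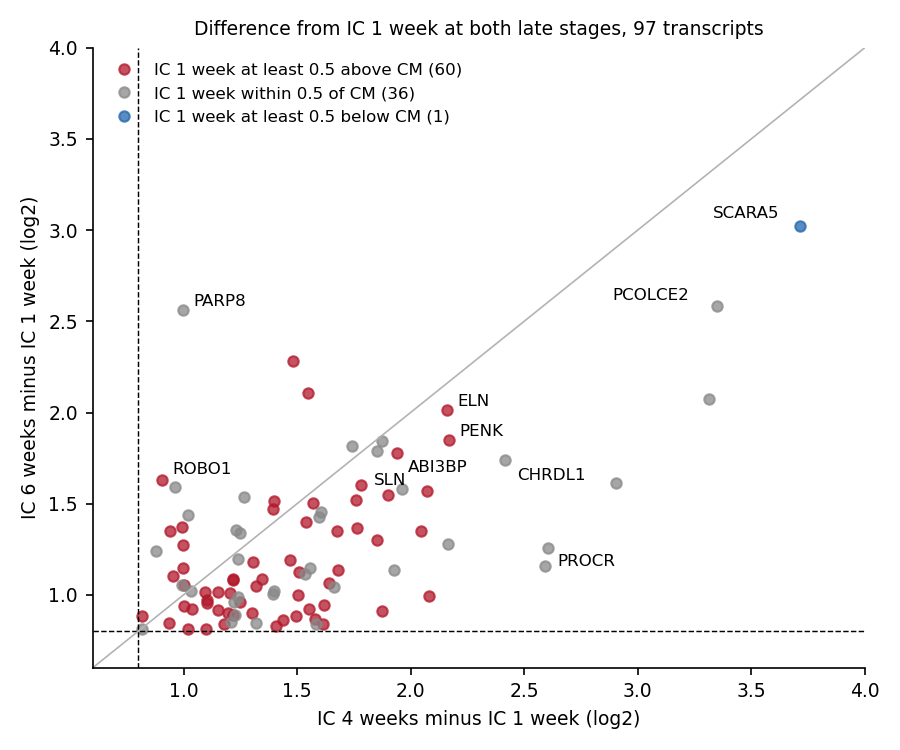
Difference of IC at 4 weeks (x axis) and of IC at 6 weeks (y axis) from IC at 1 week for the 97 transcripts, in log2 units, coloured by the position of IC at 1 week relative to CM; dashed lines are the limit of 0.8 set by the rule and the grey line marks equal differences. SCARA5 (3.72 and 3.02) and PCOLCE2 (3.35 and 2.58) lie farthest out, and 76 of the 97 points lie below the grey line.

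IC was higher than RM of the same pig in all 3 pigs for 67, 92 and 93 transcripts at 1, 4 and 6 weeks (32.9%, 33.6% and 32.9% of all probe sets), and the median difference was 0.79, 1.81 and 1.96. The rule chose the transcripts by high IC values at 4 and 6 weeks, so IC above RM there is partly built in. These counts are a description and no reading is taken from them. SCARA5 lay farthest below RM at 1 week, with a difference of IC from RM of -1.64, and was 0.96 and 1.11 higher than RM at 4 and 6 weeks. The exceptions at the late stages were DDX17, an RNA helicase, and the 2 late-rising probe sets of AMY2, pancreatic alpha-amylase. For DDX17 the mean differences of IC from RM were -0.51 and -0.28 at 4 and 6 weeks. For AMY2 they were -0.07 and -0.03 at 4 weeks.

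The limits of the rule used no RM arrays, so stages of RM were compared by test, with the reservations that RM and IC arrays of a stage come from the same pigs and that the filter counted RM arrays. Of the 97 transcripts, 18 exceeded 3 in fewer than 10 of the IC and CM arrays and passed the filter through RM arrays. The P values rest on the spread within groups of 3 pigs, pooled over all groups of the fit, IC and CM included. They do not rest on the spread of the compared RM groups alone. In this fit IC and RM arrays of the same pig were treated as independent. At 4 weeks RM was higher than RM at 1 week in 76 of the 97 transcripts (all probe sets, 48.4%), with a median difference of 0.39 (all probe sets, -0.01). After adjustment over all probe sets 3 of the 97 passed (0.928% of all probe sets higher), and none was lower (0.665%). The 4-week RM arrays lay above all 1-week RM arrays in 34 of the 97, or 35.1% (all probe sets, 12.4%), and below them in none (13.8%). At an unadjusted p under 0.05, 28 were higher and 0 lower (8.95% and 9.79% of all probe sets). The 5-prime poly-A controls were 0.94 higher and the 3-prime ones 0.29 higher in RM at 4 weeks than in RM at 1 week, and their part in these counts was not tested.

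The 3 that passed were DDX17, PCOLCE2 and SPARCL1. For PCOLCE2 the values were 6.00, 5.83 and 6.57 in RM at 4 weeks, against 5.24, 5.04 and 3.91 in RM at 1 week. The groups did not overlap, and pig 9 was the lowest. It rose by 1.40 (SE 0.32, adjusted p = 0.0333 in limma). DDX17 had 5.74, 6.01 and 5.88 in RM at 4 weeks, against 4.28, 3.98 and 4.82 at 1 week, and rose by 1.52 (SE 0.30, adjusted p = 0.0155 in limma). SPARCL1, a glycoprotein related to SPARC, had 9.08, 9.34 and 9.55 in RM at 4 weeks, against 8.75, 8.80 and 8.13 in RM at 1 week, and rose by 0.76 (SE 0.18, adjusted p = 0.0377 in limma). These calls depended on single arrays, and the count was 5 without pig 7 or 18, 1 without pig 8 or 9 and 0 without pig 20 or 22. In limma, DDX17 was no longer called without pig 8, 20 or 22 (adjusted p = 0.0647, 0.0779 and 0.0696), PCOLCE2 without pig 8, 9, 20 or 22 (adjusted p = 0.0556, 0.152, 0.077 and 0.164), and SPARCL1 without pig 9, 20 or 22 (adjusted p = 0.170, 0.135 and 0.176). With arrays centred on the hybridization controls none of the 97 was called, although the differences of DDX17, PCOLCE2 and SPARCL1 were 1.52, 1.40 and 0.76 (adjusted p = 0.151, 0.160 and 0.690 in limma). With centring on the 3-prime poly-A controls none was called either, with 1.23, 1.12 and 0.48 (adjusted p = 0.343, 0.413 and 0.729 in limma).

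The mean of the resting fibroblast markers ranged from 6.95 to 7.32 in RM at 4 weeks, against 6.54 to 6.93 in RM at 1 week. That of the 4 nerve markers ranged from 5.05 to 5.28 in RM at 4 weeks, against 4.59 to 4.84 in RM at 1 week, and that of the 6 adipocyte markers from 5.84 to 6.08 in RM at 4 weeks, against 4.72 to 6.04 in RM at 1 week. The median difference between these stages was 0.34 over the resting fibroblast markers, 0.40 over the nerve markers and 0.70 over the adipocyte markers (all probe sets, -0.01). Over general fibroblast, myofibroblast and lymphatic endothelial markers it was -0.19, -0.01 and -0.43. Over smooth muscle, macrophage, cardiomyocyte and endothelial markers it was 0.04, 0.07, 0.01 and 0.29. The part of any of these cells in the RM values was not tested. SCARA5 had 6.34, 5.29 and 6.45 in RM at 4 weeks, against 4.68, 5.68 and 4.37 at 1 week, so that the groups overlapped (difference 1.12, SE 0.48, adjusted p = 0.209 in limma). CLEC3B had 7.73, 7.39 and 7.77 in RM at 4 weeks, against 7.01, 6.99 and 6.47 in RM at 1 week, with no overlap (difference 0.81, SE 0.32, adjusted p = 0.191 in limma). ELN, TNXB and COL14A1 differed by 0.62, -0.06 and -0.11 between RM at 4 weeks and RM at 1 week, none past the test. Both late-rising AMY2 probe sets had the largest differences, 2.39 and 2.14, with adjusted p = 0.0714 and 0.091 in limma. Another AMY2 probe set, which did not meet the rule, averaged 8.85 in RM at 1 week and 8.63 at 4 weeks, against 8.93 in CM.

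RM at 6 weeks did not differ from RM at 1 week by test in any of the 97 (0.0575% of all probe sets higher and 0.123% lower). At an unadjusted p under 0.05, 7 were higher and 9 lower (4.66% and 9.66% of all probe sets), and the groups did not overlap in 11 that were higher and 7 that were lower (7.44% and 12.1%). Without the 6-week RM array of pig 5, 2 were called higher. The median difference was 0.14 (all probe sets, -0.05). PCOLCE2 had 5.45, 4.59 and 4.78 in RM at 6 weeks, which overlapped RM at 1 week. RM at 6 weeks was lower than RM at 4 weeks in 79 of the 97, with a median difference of -0.33 (all probe sets, -0.04), and the groups did not overlap in 26 of these (11.5% of all probe sets). None passed the adjusted test in limma in either direction (0.115% higher and 0.517% lower), and 20 were lower and 0 higher at an unadjusted p under 0.05 (7.84% and 3.31%). Without the RM array of pig 18 or that of pig 2, 1 was called lower. The 5-prime poly-A controls averaged 4.30 in RM at 4 weeks and 3.55 at 6 weeks, and the 3-prime ones 5.59 and 5.82. For pig actin the 5-prime minus the 3-prime control value was -3.87, -2.97 and -4.36 in RM at 1, 4 and 6 weeks. For elongation factor 1 alpha it was -2.10, -1.21 and -2.11, and for GAPDH -0.31, 0.02 and -0.28. The part of these shifts in the course of RM was not tested. The comparisons of RM stages share arrays, and with 3 arrays against 3 an exact permutation test of a single transcript cannot go below 0.1.

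**Figure D5:**
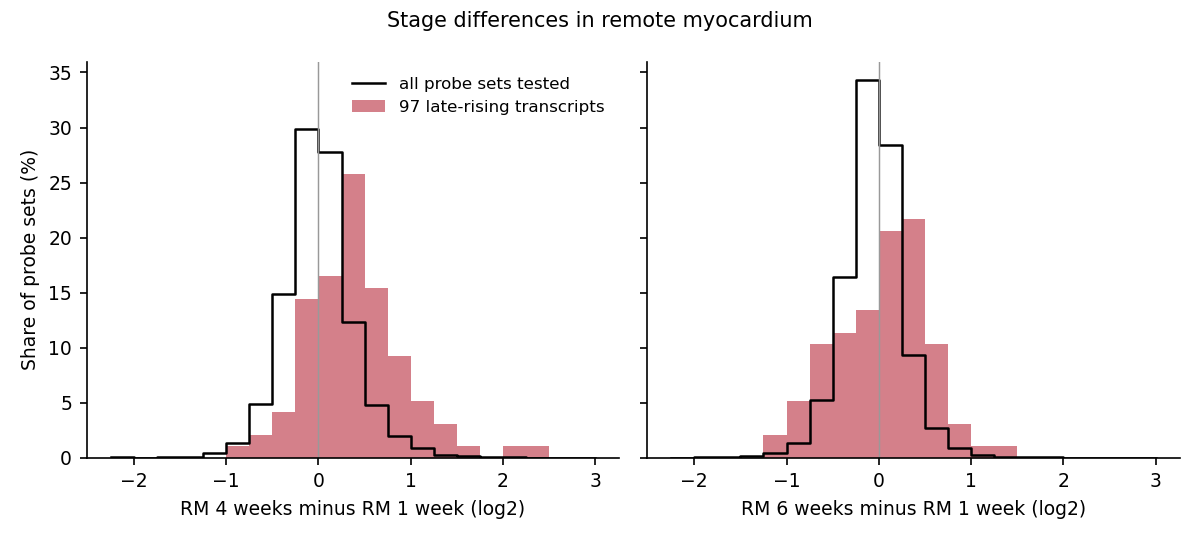
Share of probe sets (%) by the log2 difference between stages of RM, in bins of 0.25, for the 97 late-rising transcripts (filled) and for all 12180 probe sets tested (line). The transcripts lie to the right of all probe sets at 4 weeks (median 0.39 against -0.01) and are spread more evenly around 0 at 6 weeks (median 0.14 against -0.05).

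Against CM, whose arrays the rule used, RM was called higher for COL21A1 alone at 1 week (0.509% of all probe sets), for 5 probe sets at 4 weeks (0.616%) and for DDX17 alone at 6 weeks (0.0739%), and lower for none (0.624%, 0.468% and 0.123%). The 5 were DDX17, MTUS1, a microtubule-associated protein, EF1ALPHA, a probe set of translation elongation factor 1 alpha, and both late-rising ones of AMY2. At an unadjusted p under 0.05, 12, 30 and 9 were higher at 1, 4 and 6 weeks (7.92%, 8.81% and 4.43% of all probe sets), and 5, 1 and 7 were lower (6.26%, 7.85% and 8.06%). Single arrays carried these calls too. COL21A1 was lost in limma without RM pig 8 or CM pig 31 (adjusted p = 0.0705 and 0.101), and DDX17 at 6 weeks without RM pig 2 or 3 or CM pig 30, 31 or 33 (adjusted p = 0.0614, 0.114, 0.0798, 0.0678 and 0.0726). The 5 at 4 weeks became 1 without RM pig 20 or CM pig 31, 2 without RM pig 22 or CM pig 33, 3 without RM pig 18 and 4 without CM pig 30. No reading is taken from these counts, since the transcripts were chosen to lie above CM.

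Second probe sets bear on how far a name can be trusted. For 17 of the named genes another probe set was tested, 28 in all, and 16 of the 28 were above IC at 1 week at both late stages while 3 were below it at both. CRISPLD2 had a second probe set that was 1.21 and 0.71 above IC at 1 week at 4 and 6 weeks. AMY2 had another that averaged 8.77, 8.86 and 9.22 in IC at 1, 4 and 6 weeks, against 8.93 in CM. IFI44L had a pair of others, 0.81 and 1.14 above IC at 1 week at 4 weeks but 0.41 and 0.05 above it at 6 weeks. EF1ALPHA had 8 others, whose differences ran from -0.73 to 1.15 at 4 weeks. The most positive, at 1.15, was its 5-prime control probe set, with -0.14 at 6 weeks, and the most negative moved by -0.73 and 0.12.

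The limits of the rule cut through a continuous range. Just inside lay PROCR, the endothelial protein C receptor (1.00 above CM at 6 weeks), TMEM150C (1.01 at both stages) and 1 lysine spike-in probe set. Just outside lay a phenylalanine spike-in probe set (0.996 above CM at 4 weeks), CYP1B1, a cytochrome P450 (0.796 above IC at 1 week at 6 weeks), and C7, complement component 7 (0.792). Without the filter 152 probe sets met the limits, and the 52 further ones exceeded 3 in fewer than 10 arrays.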

How the data were processed

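Total RNA from each sample was labelled by 3-prime in vitro transcription and hybridized to 1 porcine genome array. The authors deposited log2 values made by robust multi-array average (RMA), which corrects background, equalizes the arrays' distributions and summarizes probes; the values run from -0.06 to 13.4 and were used as deposited. RMA sets array distributions equal, so a shift common to most transcripts is removed. Probe sets were named by the platform annotation, else by the authors' sequence match to human genes. Of the 97 late-rising transcripts 30 held both names, and in 6 of these the names differed. Of the 12180 probe sets tested, 6257 had 1 platform symbol, 133 several and 5790 none. One linear model of 7 group means over 21 arrays was fitted with limma 3.58.1 in R 4.3.3, and P values were adjusted by Benjamini-Hochberg over all 12180. The fit was tested on simulated data. Tables were made with Python 3.11.15 and pandas 2.3.3, and figures with matplotlib 3.10.9. Named genes are the 10 with the largest smaller-of-both differences from IC at 1 week and from CM, up to 4 members of each list, those at the limits, those called in RM, those below CM at 1 week, and those with several probe sets; other names were chosen after their values were seen. The members and gene lists were chosen with earlier results of these data known. IC and RM arrays with one pig number come from the same animal, per the labels, and their residuals correlated at 0.0714 to 0.491 in the 9 pigs; a fit with pig as a random block was the alternative. Other alternatives were the filter, centring, cyclic loess, group medians, shifted limits and leaving out each array. Centring on spiked-in controls was added after the data were seen. Promoter sequence was not analysed here. Some results are not reported here. In list counts and levels, a gene with several probe sets was taken by the one with the highest mean, which need not be the late-rising one.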

Additional observations from a re-analysis of the deposited data

Results flagged for a closer look

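Of the 100 probe sets that met the rule, 3 detect no pig transcript but the 5-prime part of bacterial RNAs added for labelling, and they drew attention because such RNAs carry no tissue signal. IC at 4 weeks exceeded CM by 1.257 and 1.01 for 2 lysA probe sets (AFFX-r2-Bs-lys-5_at and AFFX-Ssc-r2-Bs-lys-5_at) and by 1.016 for a pheB probe set (AFFX-Ssc-r2-Bs-phe-5_at). They were left out of every count over the 97 transcripts.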

How the results depend on the processing

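Among the counts and RM differences that were rerun, no direction was reversed under any alternative. Single differences from IC at 1 week were not among them. Of the 97 transcripts, 78 at 4 weeks and 29 at 6 weeks exceeded IC at 1 week by more than the 3-prime poly-A controls did. Centring on those controls puts the others below IC at 1 week at that stage. The difference of the 5-prime poly-A controls was exceeded by 20 at 4 weeks and by 94 at 6 weeks. At 6 weeks it was 0.82, near the limit of 0.8 set by the rule. The number of probe sets meeting the rule (100) was 152 without the filter, 51 with limits raised by 0.2 and 184 with limits lowered by 0.2, 28 after centring on hybridization controls and 1 after centring on the 3-prime poly-A controls, both centrings having been chosen after seeing the data. It lay between 88 and 123 when single arrays were left out, and between 82 and 113 under the other filter, the median and ribosomal centrings, cyclic loess and group medians. A like count need not hold the same probe sets: with group medians 99 met the rule, of which 74 were among the 100, and with single arrays left out 80 to 99 were. Of the late-rising transcripts called higher in RM, the 3 at 4 weeks over RM at 1 week became 0 under poly-A and 0 under hybridization centring and 0 to 5 with single arrays left out; the 0 at 6 weeks over RM at 1 week became 1 with median centring and 0 to 2 with arrays left out; and the 0 lower at 6 weeks than at 4 weeks became 1 under poly-A and 1 under hybridization centring and 0 to 1 with arrays left out. Against CM, the 1 higher at 1 week became 0 to 1 with arrays left out, the 5 at 4 weeks 2 without the filter, 2 under poly-A centring, 3 under hybridization centring and 1 to 4 with arrays left out, and the 1 at 6 weeks 0 under poly-A and 0 under hybridization centring and 0 to 1 with arrays left out. The cause of these changes was not tested, other than that the filter and the left-out arrays change how many probe sets or arrays are fitted. With pig as a replicate block the 3 RM calls at 4 weeks over 1 week remained, with adjusted p = 0.0168 (DDX17), 0.0434 (PCOLCE2) and 0.0312 (SPARCL1) in limma, the count against CM at 4 weeks was 6, and no other call changed. Signal near or below 3 limits the dimmer transcripts: 21 of the 97 had a CM mean below 3, where a difference is not exact.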
